A study of Mus musculus with 24 samples.

Results

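The brown and beige fat genes of the mouse mammary gland were followed over 24 arrays through 9 genes: Ucp1, Cidea, Elovl3, Cox8b, Cox7a1, Ppargc1a, Dio2, Prdm16 and Cpt1b. They were chosen by symbol, as every probe outside the array's controls whose gene name was one of these. This gave 11 of the 55681 probes on the array, with a pair of probes each for Ppargc1a and Cpt1b and a single probe for each other gene. RNA of the mammary gland of 24 female mice had been labelled in a single colour and hybridised, each mouse to its own array, in 8 groups of 3 mice. In 6 groups the mice were BALB/c, a common inbred laboratory strain, killed 2, 4 or 8 weeks after sham exposure or after low-dose ionizing radiation (LDIR). In the other groups they were SPRET/EiJ, an inbred strain of the wild mouse species Mus spretus, killed 4 weeks after sham exposure or LDIR. LDIR was a single dose of 10 cGy of X-rays to the whole body at an age of 8 to 9 weeks. The strains were compared because BALB/c is the more susceptible to mammary cancer after radiation. BALB/c mice also carry variants of the DNA repair kinase DNA-PKcs that lower its activity, in sham and LDIR groups alike. SPRET/EiJ mice were studied at a single time.

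Brown fat burns fatty acids to make heat, and beige adipocytes are cells within white fat that take on the same programme when stimulated. In both, noradrenaline acting on beta-adrenergic receptors and thyroid hormone raise the transcription of Ucp1, whose protein lets protons leak across the inner mitochondrial membrane. The mammary epithelium of the mouse lies in a subcutaneous fat pad, a depot in which beige adipocytes are well known. Some of the 9 genes are also used outside brown fat: Cox8b, Cox7a1 and Cpt1b encode the forms of their proteins found in skeletal and heart muscle, and Cidea and Elovl3 are also expressed in skin glands.

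The sequences below show where the levels of the uncoupling protein and of Cox7a1 were read, and the promoters of 4 genes that carry the results: Ucp1 and Cox8b, which differed between strains in opposite directions, and Ppargc1a and Dio2. Each probe has 60 bases. The Ucp1 probe lies at chr8:85821788-85821847 (mm9, the build of the array files), and the Cox7a1 probe spans chr7:30970337-30970948 (mm9), 612 bases, so that it crosses an intron. Both are printed 5′ to 3′ as on the array.
Ucp1 probe: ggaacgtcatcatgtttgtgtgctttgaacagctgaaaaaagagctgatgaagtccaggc
Cox7a1 probe: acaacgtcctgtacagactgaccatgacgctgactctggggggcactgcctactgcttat
The promoters are from RefSeq (GRCm38.p6), in which 6 of the 9 genes were matched. Each is printed 5′ to 3′ on the strand of the gene, from 250 bases before to 30 bases after the annotated start. They are Ucp1 at chr8:83290098-83290377 (plus strand), Cox8b at chr7:140900417-140900696, Ppargc1a at chr5:51567696-51567975 and Dio2 at chr12:90739009-90739288 (all minus strand). Capitals mark 3 motifs on either strand: the TATA box motif (TATAAA), the core of the cyclic AMP response element (TGACG) and the core of nuclear receptor sites (AGGTCA).
Ucp1 promoter: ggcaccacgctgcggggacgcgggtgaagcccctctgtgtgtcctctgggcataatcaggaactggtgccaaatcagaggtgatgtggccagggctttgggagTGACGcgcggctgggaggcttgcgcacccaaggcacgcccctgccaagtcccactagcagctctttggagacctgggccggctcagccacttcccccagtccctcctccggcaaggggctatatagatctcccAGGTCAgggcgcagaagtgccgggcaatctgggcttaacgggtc
Cox8b promoter: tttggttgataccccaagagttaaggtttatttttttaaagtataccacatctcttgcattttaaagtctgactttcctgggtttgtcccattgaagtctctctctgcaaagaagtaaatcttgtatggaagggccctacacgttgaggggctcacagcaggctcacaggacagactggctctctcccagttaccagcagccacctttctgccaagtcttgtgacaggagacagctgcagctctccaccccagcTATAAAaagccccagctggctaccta
Ppargc1a promoter: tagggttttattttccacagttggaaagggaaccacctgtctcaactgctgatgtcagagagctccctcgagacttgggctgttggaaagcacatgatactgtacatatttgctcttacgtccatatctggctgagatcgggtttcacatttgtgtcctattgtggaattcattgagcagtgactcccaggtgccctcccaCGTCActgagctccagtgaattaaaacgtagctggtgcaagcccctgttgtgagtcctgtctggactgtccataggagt
Dio2 promoter: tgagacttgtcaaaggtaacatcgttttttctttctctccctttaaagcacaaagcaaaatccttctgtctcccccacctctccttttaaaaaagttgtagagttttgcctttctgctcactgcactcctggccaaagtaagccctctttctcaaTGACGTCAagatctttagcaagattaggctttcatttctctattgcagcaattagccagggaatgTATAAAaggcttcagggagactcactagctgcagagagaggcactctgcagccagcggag
In this window TGACG lay in 3 of the 6 matched promoters (Ucp1, Ppargc1a and Dio2) and in 19.9% of all 32851 promoters in RefSeq. In Dio2 it lay on both strands in overlap, as TGACGTCA. AGGTCA lay in 1 of the 6 (Ucp1) against 15.3% of all promoters, and TATAAA in 2 (Cox8b and Dio2) against 13.1%. In Dio2 TATAAA began at position -30 from the annotated start, but in Cox8b at position 5, past that start. A match of letters is a description of the sequence and not evidence of binding.

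Levels are log2 intensities relative to the 75th percentile of the same array, so that 0 is that percentile and 1 unit is a doubling. They are compared between arrays for a given probe and not between probes. All 9 genes were well above background on at least 18 of the 24 arrays. Ucp1 was missing from 1 array, BALB/c 8 weeks LDIR replicate B. Elovl3 was missing from 6, all BALB/c: 1 each in the 2 weeks LDIR, 2 weeks sham, 4 weeks LDIR and 8 weeks sham groups and 2 in the 8 weeks LDIR group. The 7 other genes were above background everywhere. In this bulk tissue, fewer cells of a type and less RNA per cell cannot be told apart.

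On 3 arrays the levels stood apart from their groups: BALB/c 8 weeks sham replicate A, BALB/c 8 weeks LDIR replicate B and SPRET/EiJ LDIR replicate A. On them the summed level of 10 leukocyte markers was 7.01 to 7.31, against 5.06 to 6.45 on the other 21 arrays. The summed level of 12 white adipocyte markers was 10.43 to 10.70, against 11.17 to 12.22, and that of the 9 genes was 2.61 to 3.78, against 4.27 to 7.43. The 6 pairs of replicates that include one of them correlated at 0.938 to 0.960 over all probes, and the other 18 pairs at 0.982 to 0.988. SPRET/EiJ LDIR replicate C had the fewest probes well above background, 57.2% against 64.7% to 72.7%. The arrays lay on 3 slides of 8. All SPRET/EiJ arrays were on slide 3 and all arrays of the 2 weeks groups on slide 1, while the other BALB/c groups were on slide 2, or split over slides in the 4 weeks sham (A and B on slide 1) and 8 weeks LDIR (B and C on slide 3) groups. The labelled tissue was borne out: all 12 white adipocyte and all 12 mammary epithelium markers were well above background on every array.

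**Figure D1:**
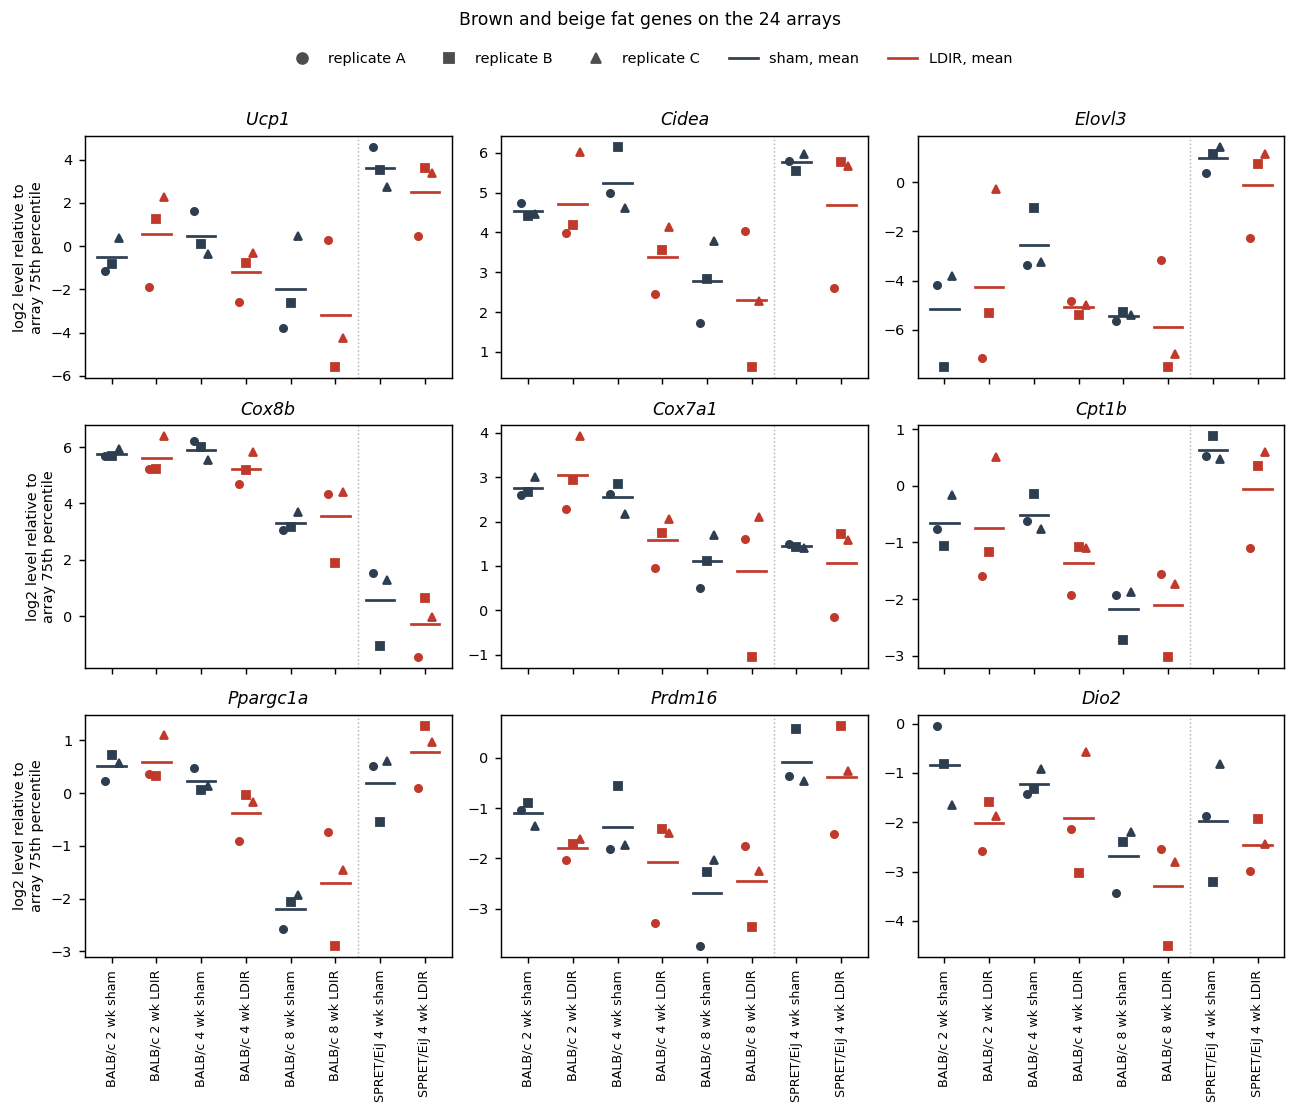
Log2 level of the brightest probe of each gene (y axis, relative to the 75th percentile of the array) on each of the 24 arrays, by group; symbols are the 3 replicates, bars are group means, dark is sham and red is LDIR. The SPRET/EiJ arrays lie right of the dotted line: their Cox8b levels (-1.44 to 1.53) are below every BALB/c array, and BALB/c 8 weeks LDIR replicate B lies at the bottom for most genes, with Ucp1 and Elovl3 not above background there.

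Ucp1 had the widest range of the 9 genes over the arrays, from -5.61 on the array where it was not above background to 4.59, or 10.20 on the log2 scale. Its level was 4.59, 3.51 and 2.74 in the SPRET/EiJ sham mice and 0.48, 3.60 and 3.39 in the SPRET/EiJ LDIR mice (replicates A, B and C). The BALB/c sham mice of 2 weeks had levels of -1.13, -0.81 and 0.37, those of 4 weeks 1.64, 0.08 and -0.36 and those of 8 weeks -3.78, -2.61 and 0.48. The BALB/c LDIR mice of 2 weeks had levels of -1.87, 1.24 and 2.30, those of 4 weeks -2.57, -0.77 and -0.29 and those of 8 weeks 0.29, -5.61 and -4.23. The order of the group means ran from SPRET/EiJ sham (3.61 ± 0.93, SD, n = 3) through SPRET/EiJ LDIR (2.49 ± 1.74) to the BALB/c groups, in the order 2 weeks LDIR (0.55 ± 2.16), 4 weeks sham (0.45 ± 1.05), 2 weeks sham (-0.52 ± 0.79), 4 weeks LDIR (-1.21 ± 1.20), 8 weeks sham (-1.97 ± 2.20) and 8 weeks LDIR (-3.18 ± 3.09). The ranges of every pair of neighbours in this order overlapped. Only the SPRET/EiJ sham arrays lay, all 3, above every BALB/c array. Elovl3 had the next widest range, 8.95, and Cox8b one of 7.82. By the SD over all arrays Elovl3 came first (2.94, percentile 99.8 of all probes), before Ucp1 (2.63, percentile 99.6) and Cox8b (2.42, percentile 99.4). The other 6 genes spanned between 3.90 and 5.54.

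The strains were compared in sham mice at 4 weeks, the only time at which both were collected. A probe was called between strains when limma gave an unadjusted p under 0.001 and the difference was over 1.5-fold. In this comparison 8.85% of all probes were called, and 18.7% passed an adjusted p under 0.05. Of the 9 genes 1 was called and 5 passed the adjusted threshold, of which BALB/c had the higher level in 2 and the lower in 3. The respiratory chain subunits were the genes higher in BALB/c. Cox8b, a subunit of cytochrome c oxidase, was at 6.21, 5.99 and 5.53 in BALB/c and at 1.53, -1.07 and 1.29 in SPRET/EiJ. Its level was thus 40.2-fold higher in BALB/c, a log2 difference of 5.33 with a standard error (SE) of 0.69 and an adjusted p of 0.00397 from limma. Cox7a1, another subunit of the same complex, was at 2.62, 2.84 and 2.18 in BALB/c and at 1.498, 1.43 and 1.39 in SPRET/EiJ. Its difference was 1.11 (SE 0.21, adjusted p = 0.0160). The groups of neither gene overlapped.

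Ucp1, Elovl3 and Cpt1b were lower in BALB/c. Ucp1 was 8.95-fold lower, with the values given above, a log2 difference of -3.16 (SE 0.66, adjusted p = 0.0213 from limma). Elovl3, which elongates very long chain fatty acids and marks active brown fat, was at -3.35, -1.06 and -3.26 in BALB/c and at 0.38, 1.12 and 1.42 in SPRET/EiJ. That difference of -3.53 (SE 0.66, adjusted p = 0.0148) was 11.6-fold. Cpt1b, which brings long chain fatty acids into mitochondria, was at -0.62, -0.14 and -0.76 in BALB/c and at 0.53, 0.88 and 0.49 in SPRET/EiJ (difference -1.14, SE 0.23, adjusted p = 0.0186). Its other probe gave -0.65 with an adjusted p of 0.204. The groups of Prdm16, a transcriptional coregulator that favours the brown fat fate, did not overlap either, but its difference of -1.29 missed the threshold (adjusted p = 0.0975). Cidea, a lipid droplet protein, had a difference of -0.51 (95% interval -1.49 to 0.47). Dio2, the deiodinase that makes active thyroid hormone inside the cell, had one of 0.75 (-0.66 to 2.15). Ppargc1a, a coactivator that drives mitochondrial biogenesis, had one of 0.04 (-0.79 to 0.87). The 9 genes thus did not move as a block between strains: their differences ran from -3.53 to 5.33 around a median of -0.51, against -0.06 over all probes.

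**Figure D2:**
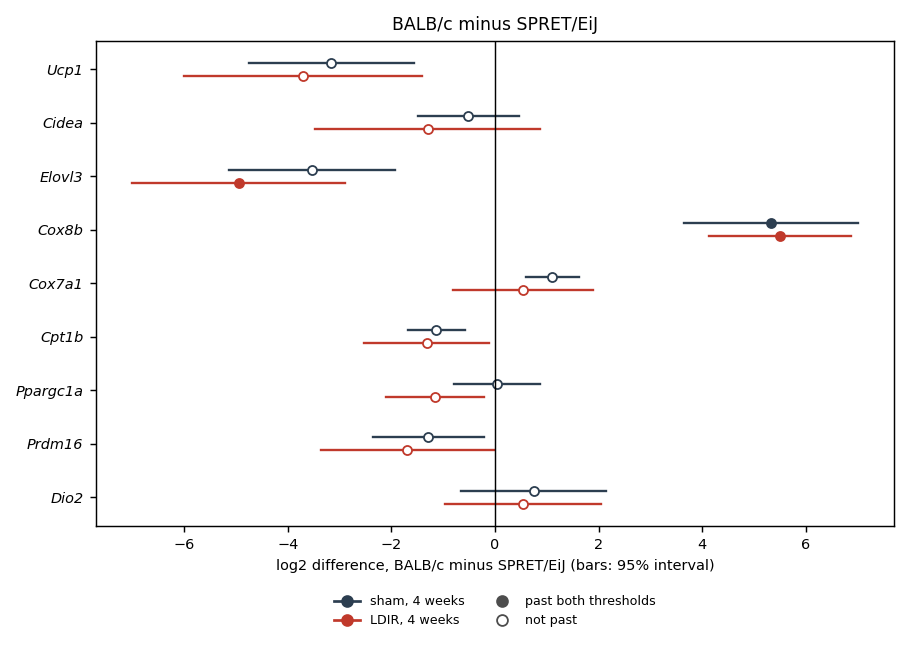
Log2 difference of each gene, BALB/c minus SPRET/EiJ (x axis), with its 95% interval, in sham and in LDIR mice at 4 weeks; filled points passed both thresholds. Cox8b lies far right of 0 in both (5.33 and 5.50), and Elovl3 and Ucp1 lie left of it.

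Other genes of the brown fat programme also differed in both directions. Of 26 other brown and beige fat genes, 2 were called higher and 3 lower in BALB/c, and 6 passed the adjusted threshold in each direction. Acot2, a mitochondrial acyl-CoA thioesterase, differed by -4.34 (adjusted p = 4.63e-04 from limma) and Otop1, a proton channel, by -3.57 (adjusted p = 6.06e-04). Slc27a2, a very long chain acyl-CoA synthetase, differed by 3.19 (adjusted p = 6.82e-04), and Adrb3, the beta-3 adrenergic receptor of adipocytes, by 1.77 (adjusted p = 0.00374). Of 20 adrenergic, thyroid and nuclear receptor regulators, Adrb3 was the only one called. Of the 11 paralogs of the 9 genes, Elovl6 was called, with a difference of -2.48 (adjusted p = 0.00788), and of 17 genes of mitochondrial fatty acid oxidation, Hadh, with one of -1.35 (adjusted p = 0.00405).

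The RNA of the strains was read with the same probes. Among 5630 genes with at least a pair of probes above background on every array, the strain differences of the pair were apart by over 1 log2 unit for 19.7% of genes, against 0.249% to 0.657% in the comparisons of LDIR with sham within a strain and week. Cox8b, Ucp1, Elovl3 and Cox7a1 have 1 probe each, and the part of probe sequence in their differences was not tested. Marker sums moved with strain too: that of the 12 epithelium markers was 7.21 to 8.17 in BALB/c and 5.02 to 7.11 in SPRET/EiJ, and that of the 10 leukocyte markers 5.10 to 5.57 against 6.10 to 6.29. The sum of 12 skin and sebaceous gland markers was 2.62 to 3.10 against 4.78 to 5.06, with 7 or 8 of them above background on any of these arrays, and Scd3 (-2.58, adjusted p = 0.00296) and Krt79 (-1.91, adjusted p = 9.12e-04) lower in BALB/c. The list as a whole did not go one way. Of the 12 differences 6 were positive, the median was -0.0044, and 1 marker passed the adjusted threshold as higher in BALB/c. Of the 20 skeletal muscle markers 0 were called, but 16 had positive differences, with a median of 1.07, and their sum was 3.94 to 6.02 in BALB/c and 4.27 to 4.98 in SPRET/EiJ. The part of these cell types in the result, that of muscle in Cox8b and Cox7a1 included, was not tested. White adipocyte sums overlapped (11.71 to 12.07 and 11.80 to 12.09), although Plin1, which coats the lipid droplet, was 3.86 higher in BALB/c (adjusted p = 0.00244). The sham arrays of the strains shared no slide. With slide as a random block, Cox8b was 5.34 higher and still the only one of the 9 called. In a fit of all 24 arrays with slide as a term, where the strains are linked only through the BALB/c 8 weeks LDIR arrays on slide 3, the Cox8b difference was 3.75, no gene was called and Cox7a1 turned to -0.34. With each array of the comparison left out in turn, the Cox8b difference ran from 4.50 to 5.80. Without any of the BALB/c sham arrays it stayed between 5.18 and 5.52, but its p of 0.00102 to 0.00179 from limma no longer passed 0.001.

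The same comparison in LDIR mice at 4 weeks called 2 of the 9 genes, against 5.67% of all probes (11.1% by adjusted p). Cox8b was at 4.68, 5.18 and 5.82 in BALB/c and at -1.44, 0.65 and -0.03 in SPRET/EiJ, a difference of 5.50 (SE 0.57, adjusted p = 0.00258 from limma). Elovl3 was at -4.83, -5.41 and -4.98 in BALB/c, where 2 of 3 arrays measured it above background, and at -2.26, 0.73 and 1.15 in SPRET/EiJ (difference -4.95, SE 0.86, adjusted p = 0.0156). No groups overlapped for these genes, nor for Ucp1 (-3.71, SE 0.96, adjusted p = 0.0569) or Ppargc1a (-1.16, SE 0.40, adjusted p = 0.125). On the other Ppargc1a probe the groups did overlap, at -4.56 to -3.30 in BALB/c and -3.80 to -2.76 in SPRET/EiJ. Without SPRET/EiJ LDIR replicate A, 3 genes were called: Ucp1 at -4.71, Elovl3 at -6.01 and Cox8b at 4.92. How many of all probes were called in that refit was not counted. The slide term in the fit of all arrays gave 4.31 for Cox8b, no longer called. Of the skeletal muscle markers Mb, the oxygen store of muscle, was called, with a difference of 3.00 (adjusted p = 0.00123 from limma). Mb was above background on 1 of the SPRET/EiJ arrays. Of the 20 muscle differences 10 were positive, with a median of 0.04, and 2 passed the adjusted threshold as higher and 1 as lower in BALB/c. Among the other brown fat genes Acot2 (-3.88), Lhx8 (-2.41) and Acot11 (-1.73) were called lower in BALB/c, with adjusted p of 0.00681 to 0.0119. Here BALB/c was hybridised on slide 2 alone and SPRET/EiJ on slide 3 alone, which means that slide and strain cannot be told apart.

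In sham BALB/c mice the genes were compared between weeks, which sets mice of different ages and arrays of different slides against each other. A probe was called here, as after LDIR, at an unadjusted p under 0.05 with a change over 1.5-fold. Between 4 and 8 weeks 7 of the 9 genes were called, all lower at 8 weeks, while 13.8% of all probes were called in either direction. By adjusted p under 0.05, limma passed 0 of 55681 probes, a share of 0%, with 7891 at an unadjusted p under 0.05. The 9 differences were all negative, from -2.88 to -1.31 with a median of -2.42, against 0.05 over all probes. The ranges of 8 genes did not overlap between the weeks, Ucp1 being the exception. The share of all probes without overlap is not given, so this count has no background beside it.

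Cox8b and Ppargc1a carried the smallest p. Cox8b fell from 6.21, 5.99 and 5.53 at 4 weeks to 3.06, 3.18 and 3.71 at 8 weeks, by 2.60 on the log2 scale (SE 0.30, adjusted p = 0.0852 from limma). Ppargc1a fell from 0.48, 0.07 and 0.14 to -2.58, -2.06 and -1.93, by 2.42 (SE 0.28, adjusted p = 0.0852), and its other probe fell by 2.16. Each of the 8 weeks arrays was thus below each of the 4 weeks arrays for both genes. Elovl3 fell by 2.88 (SE 0.65), Cidea by 2.47 (SE 0.64), Cpt1b by 1.67 (SE 0.33), Dio2 by 1.45 (SE 0.39) and Cox7a1 by 1.45 (SE 0.38), with unadjusted p of 0.00242 to 0.00976 from limma. Elovl3 was above background on 2 of the 3 arrays at 8 weeks. Prdm16 and Ucp1 were not called, with differences of -1.31 (adjusted p = 0.392 from limma) and -2.42 (adjusted p = 0.431), and Ucp1 had replicate C at 0.48 inside the range of the 4 weeks mice.

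**Figure D3:**
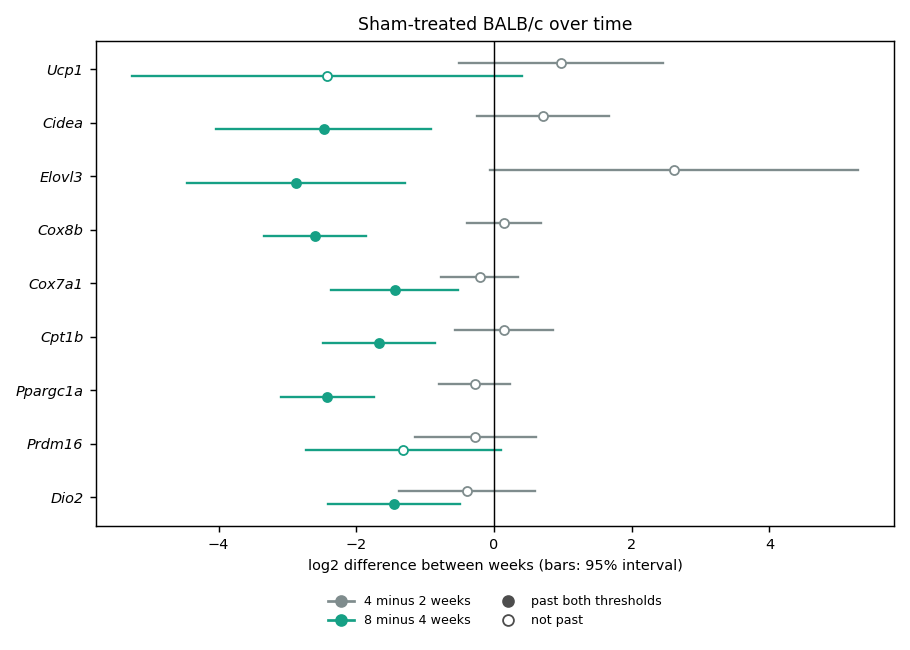
Log2 difference of each gene between weeks in sham BALB/c mice (x axis) with its 95% interval, for 4 minus 2 weeks and 8 minus 4 weeks; filled points passed both thresholds. All 9 points for 8 minus 4 weeks lie left of 0, between -2.88 and -1.31.

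Other lists moved with these genes. Of 17 fatty acid oxidation genes 11 were called lower and 0 higher at 8 weeks than at 4. Over all 17 the median was -1.06, and 1 difference was positive. The largest falls among those called were those of Hadh (by 1.56), Acadm (by 1.26) and Etfb (by 1.25), which encode enzymes of beta-oxidation and its electron transfer. Of 12 white adipocyte markers 7 were called lower, among them Retn (by 1.22), Pparg (by 1.13) and Plin1 (by 1.06). The median over all 12 was -0.90, with 1 difference positive. Among the 26 other brown fat genes 6 were called lower, led by Adrb3 (by 1.76) and Clstn3 (by 1.59). Called higher were 2, including Cox6a2, a muscle form of a cytochrome oxidase subunit, by 3.12, and 10 of the 26 differences were positive. Of the 11 paralogs 6 were called lower and 2 higher, with a median of -0.69 and 3 differences positive. Those called higher were Ucp3 and Ucp2, relatives of Ucp1, which rose by 1.42 and 1.36. Ppargc1b, among those called lower, fell by 1.17. Ucp3 is also on the list of 26, so its call counts in both lists. Skeletal muscle markers went the other way: 17 of 20 were called higher, including Ckm by 5.17 and Tnnt3 by 5.05. All 20 differences were positive, with a median of 3.43. The muscle sum was 3.94 to 6.02 at 4 weeks and 6.31 to 8.07 at 8 weeks.

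The leukocyte sum was highest on 8 weeks sham replicate A, and the part of these markers in the result was not tested. Without that array 7 genes were again called, with Cox8b at -2.47 and Ppargc1a at -2.22. With slide as a term, which sets the 8 weeks arrays against the single 4 weeks sham array of their slide (C), the differences were all negative, from -2.34 to -0.96, and 4 genes were called: Ppargc1a, Cox8b, Dio2 and Cpt1b. How many of all probes were called in these refits was not counted. Between 2 and 4 weeks 0 of the 9 genes were called in sham mice, against 3.04% of all probes. The smallest p was that of Elovl3, at 0.0538 from limma (-4.19, -7.52 and -3.81 at 2 weeks, of which B was not above background), and the differences ran from -0.39 to 2.62 around a median of 0.14. Cidea was called with slide as a term, 1.03 higher at 4 weeks. Only 4 weeks sham C lay on another slide than the rest, so this fit is the same as leaving that array out.

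After LDIR, BALB/c mice at 4 weeks showed the largest share of the 9 genes called. All 9 differences were negative, from -2.52 to -0.60, with a median of -0.86 against 0.02 over all probes. Of these, 4 were called, all lower after LDIR, while 4.78% of all probes were called. No probe of the array passed an adjusted p under 0.05 (smallest 0.331, with 3392 probes at an unadjusted p under 0.05). Cidea was at 2.46, 3.56 and 4.13 after LDIR and at 5.004, 6.15 and 4.61 after sham, a fall of 3.66-fold (log2 difference -1.87, SE 0.55, adjusted p = 0.761 from limma). Elovl3 was at -4.83, -5.41 and -4.98 after LDIR, B not being above background, and at -3.35, -1.06 and -3.26 after sham (-2.52, SE 0.62, adjusted p = 0.699). Neither gene's groups overlapped.

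Cox7a1 fell by 0.96 (SE 0.33, adjusted p = 0.783 from limma), from 2.62, 2.84 and 2.18 to 0.96, 1.75 and 2.07. Cpt1b fell by 0.86 (SE 0.30, adjusted p = 0.783), and its other probe by 1.22. Ppargc1a was lower on each LDIR array than on each sham array, but its difference of -0.60 was not called (unadjusted p of 0.0683 from limma). On its other probe the groups overlapped, at -4.56 to -3.30 after LDIR and -3.61 to -3.33 after sham. The difference of Ucp1 was -1.67 (95% interval -3.44 to 0.11), and its LDIR arrays B and C lay near the lowest sham array. Cox8b, Prdm16 and Dio2 had differences of -0.69, -0.70 and -0.69 with overlapping groups.

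**Figure D4:**
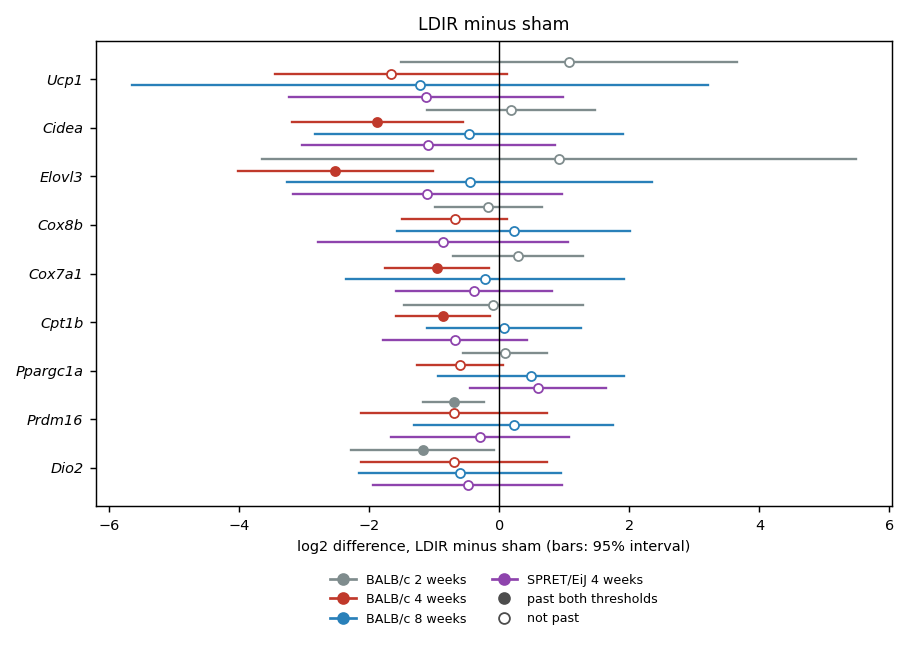
Log2 difference of each gene, LDIR minus sham (x axis), with its 95% interval, for the 3 BALB/c time points and for SPRET/EiJ; filled points passed both thresholds. The 4 filled points at 4 weeks in BALB/c (Cidea, Elovl3, Cox7a1 and Cpt1b) and the 2 at 2 weeks (Prdm16 and Dio2) lie left of 0.

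Most genes of the related lists did not pass the test at 4 weeks. Of the 20 regulators and the 11 paralogs 0 were called. Of the 26 other brown fat genes 6 were called lower and 1 higher, with 8 differences positive and a median of -0.26. Those that fell most were Cited1, a beige fat marker, by 1.38, Tbx1, another, by 1.38 and Slc27a2 by 1.34. Of 17 fatty acid oxidation genes 3 were called, all lower: Slc25a20, the mitochondrial carnitine carrier, by 1.59, Hadh by 0.63 and Acadl by 0.59. Of 12 white adipocyte markers 1 was called lower (Lipe, by 0.62), and their sums were 11.37 to 11.91 after LDIR and 11.71 to 12.07 after sham. Of 10 leukocyte markers 2 were called higher (Cd68 by 0.82 and Emr1 by 0.73), and their sums were 5.54 to 5.67 against 5.10 to 5.57. Of the 20 skeletal muscle markers 1 was called higher (Myh2, by 0.91) and 1 lower (Eno3, by 0.66). Their median was -0.77 and their sums were 3.72 to 4.35 after LDIR and 3.94 to 6.02 after sham. Of 12 epithelium markers 2 were called lower (Krt14 by 0.92 and Krt5 by 0.73). Of 12 skin and sebaceous gland markers 1 was called higher (Awat1, by 1.16), with a median of 0.38 over the list. Awat1 was above background on 1 LDIR array and 0 sham arrays, and its groups overlapped. The part of these cell types in the result was not tested.

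The groups of this comparison were placed unequally on the slides. All LDIR arrays were on slide 2, as was 1 sham array (C), while sham A and B were on slide 1. With slide as a term, which sets the LDIR arrays against sham C, the 9 differences were all still negative, from -1.82 (Elovl3) to -0.31 (Cox8b), and 0 genes were called. Without LDIR replicate C, 7 genes were called, and without LDIR replicate A or sham replicate B, 2. The share of all probes called was not counted in these refits, so the counts cannot be set against it.

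At 2 weeks 2 of the 9 genes were called in BALB/c, both lower after LDIR, against 3.13% of all probes. These were Prdm16 and Dio2. Prdm16 was at -2.04, -1.72 and -1.62 after LDIR and at -1.03, -0.90 and -1.35 after sham, a difference of -0.70 (SE 0.19, adjusted p = 0.894 from limma) without overlap. Dio2 was at -2.58, -1.58 and -1.87 after LDIR and at -0.05, -0.82 and -1.65 after sham, with LDIR B inside the sham range (-1.18, SE 0.46, adjusted p = 0.894). All arrays lay on slide 1. With the replicate letter as a block, which at this week was taken to pair the arrays, Prdm16 kept its call (unadjusted p of 0.0248 from limma) and Dio2 lost it (0.0797). The other differences ran from -0.16 to 1.08. Ucp1 was higher by 1.08 (95% interval -1.51 to 3.66), and LDIR replicate C had the highest Cox8b, Cox7a1 and Elovl3 levels of any BALB/c array. Among the other brown fat genes Lhx8 (by 1.17) and Tbx1 (by 1.04) fell and Irf4 rose by 1.04. Skeletal muscle sums were 4.59 to 8.90 after LDIR and 3.97 to 9.91 after sham. Leukocyte sums did not overlap, at 5.79 to 5.82 after LDIR and 5.13 to 5.48 after sham. Of the 10 leukocyte markers 1 was called, Ms4a1, higher by 1.29 and above background on 0 sham arrays. The part of these cell types in the result, that of leukocytes in Irf4 included, was not tested. No gene's adjusted p passed 0.05 (smallest of any probe 0.488, with 2787 probes at an unadjusted p under 0.05).

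At 8 weeks 0 of the 9 genes were called by limma in BALB/c, against 1.8% of all probes, and the smallest p among the 9 was 0.377. The methods' t-test also called 0. The median over the 9 was -0.22 and that over all probes -0.14. LDIR replicates were far apart: Cox8b was at 4.34, 1.87 and 4.41 after LDIR and at 3.06, 3.18 and 3.71 after sham. LDIR replicate B, with a leukocyte sum of 7.31, was the lowest array of the series for Cidea, Cox7a1, Ppargc1a, Dio2 and Cpt1b, while Ucp1 and Elovl3 were not above background on it. Without it and sham replicate A, Cox8b was higher after LDIR by 0.93 and Ppargc1a by 0.90, and both were called. With slide as a term, which sets a single LDIR array (A) against the sham arrays of its slide, all 9 differences were positive, from 0.14 to 2.27. That lone array is assumed to vary as the others do, so the call of Elovl3 in this fit has no replicate behind it, and sham A was not above background for it. Among the 26 other brown fat genes 0 were called at 8 weeks, and among the 17 fatty acid oxidation genes 0.

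In SPRET/EiJ mice at 4 weeks limma called 0 of the 9 genes after LDIR, against 2.2% of all probes, with a smallest p of 0.190 and 0 calls by the methods' t-test. The differences of 8 genes were negative and the median was -0.68, against 0.04 over all probes. These values rested on LDIR replicate A, the array with a leukocyte sum of 7.20. There Cidea was at 2.60 against 5.78 and 5.67 on the other LDIR arrays, and 5.79, 5.55 and 5.97 after sham. Without that array Cidea differed by -0.05, Ucp1 by -0.12 and Elovl3 by -0.04, in place of -1.09, -1.12 and -1.10. Without sham replicate B, Cox8b was called, at -1.69. Ppargc1a was the only one of the 9 with a positive difference, 0.60 (95% interval -0.46 to 1.65). Its other probe went the other way, with means of -3.29 after LDIR and -3.00 after sham. Of the 17 fatty acid oxidation genes and the 12 white adipocyte markers 0 were called, with medians of -0.42 and -0.53.

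Whether LDIR acted differently in the strains at 4 weeks was tested with an interaction term. Of the 9 genes 0 were called by limma, against 3.53% of all probes, and 0 by the methods' t-test. The smallest p was that of Ppargc1a, 0.0523, with a difference between the strains' LDIR effects (BALB/c minus SPRET/EiJ) of -1.20 (SE 0.55). On its other probe the mean was lower after LDIR in both strains: -3.85 against -3.44 in BALB/c and -3.29 against -3.00 in SPRET/EiJ. Without SPRET/EiJ LDIR replicate A 4 genes were called: Ppargc1a (-1.54), Cidea (-1.83), Elovl3 (-2.48) and Cox7a1 (-1.18). The share of all probes called without that array was not counted. Over the 18 BALB/c arrays with week as a term, 1 of the 9 genes was called, against 1.08% of all probes. This was Dio2, which fell by 0.82 (SE 0.35, adjusted p = 0.997 from limma). On the 9 LDIR arrays its level had a mean of -2.40 and on the 9 sham arrays one of -1.58. With slide as a term 0 genes were called, 6 of the 9 differences were positive and the Dio2 difference was -0.80. Whether the LDIR effects differ between weeks was not tested.

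Deviations within groups were compared between genes. Taking each array's deviation from the mean of its group, over 24 arrays that share slides and scaling, Pearson's r was positive for all 36 pairs of genes, from 0.21 (Dio2 and Cpt1b) to 0.90 (Cox8b and Ppargc1a), with a median of 0.62, and over 0.5 in 28 pairs. The 3 arrays that stood apart weighed on this: over the other 21 arrays r was -0.06 to 0.87 with a median of 0.47, positive in 33 pairs and over 0.5 in 16. The genes whose deviations were most like those of Ucp1 were Otop1 (r = 0.94), Mblac2 (0.94) and Scd3 (0.91), out of 26156 genes compared. These r and those that follow are over all 24 arrays, the 3 that stood apart included. Those of Cidea were Acadl and Sdha, which encode mitochondrial dehydrogenases, and 1300010F03Rik (each 0.95). Those of Cox8b were Mogat1 (0.93), Ehhadh and Clstn3 (both 0.92), and Mogat1 was also the first for Ppargc1a (0.92). For Cox7a1 they were Ggnbp1, Retsat and Fdx1 (each 0.95). Chchd10 led for Cpt1b (0.90), Uap1 for Prdm16 (0.93), Mpped1 for Elovl3 (0.84) and Lmcd1 for Dio2 (0.78).

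The deviations were also set beside those of the summed marker lists. Against the white adipocyte sum r was 0.36 to 0.92 over the 9 genes, and against the fatty acid oxidation sum 0.45 to 0.93. Against the leukocyte sum it was -0.80 to -0.33. Without the 3 arrays that stood apart, these ranges became -0.19 to 0.82, -0.01 to 0.89 and -0.36 to 0.33, with Dio2 lowest in each. Against the skeletal muscle sum r was -0.06 (Dio2) to 0.42 (Cox7a1) over all arrays, with Cox8b at 0.33 and Cpt1b at 0.27, and -0.46 to -0.04 without those 3. The highest muscle sums, 9.91 on BALB/c 2 weeks sham replicate C and 10.47 on 8 weeks LDIR replicate C, came with Cox8b levels of 5.93 and 4.41, the highest of their groups. Against the skin and sebaceous gland sum r was 0.42 to 0.86, with Ucp1 highest, and 0.07 to 0.87 without those 3 arrays, with Ucp1 again highest.

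**Figure D5:**
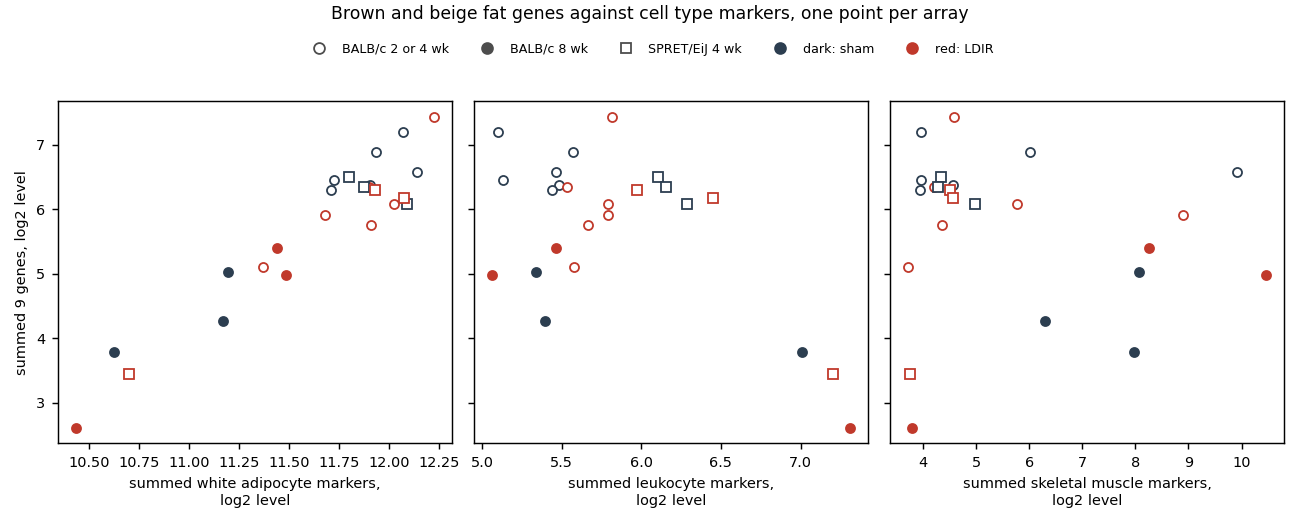
Summed level of the 9 genes (y axis, log2) against the summed level of 12 white adipocyte, 10 leukocyte and 20 skeletal muscle markers (x axes, log2), with 1 point for each of the 24 arrays. The 3 arrays with leukocyte sums of 7.01 to 7.31 have the lowest sums of the 9 genes (2.61 to 3.78) and of the white adipocyte markers, and no such order shows against muscle markers.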

How the data were processed

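RNA of mammary gland from 24 mice was labelled with Cy3 and hybridised to Agilent lncRNA and mRNA arrays. The deposited intensity values were processed by the authors in Agilent Feature Extraction, with background subtracted and mm9 coordinates per the file headers. The authors also deposited a table of log2 values, scaled in GeneSpring to the 75th percentile. After centring by probe and array, 99.9% of them lay within 0.01 of the intensities, so that its centring is known only to set each probe's median to 0. Its column medians were -0.22 to 0.33, its direction followed the intensities and it served as an alternative.

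Here log2 of the processed intensity minus the 75th percentile of the array was used. Control spots and outlier spots were left out and spots of a probe were averaged. Each gene was read by its probe of highest mean level. Groups followed the labels. Comparisons were fitted with limma 3.58.1 in R 4.3.3 on all probes, over the arrays compared, with Benjamini-Hochberg adjustment over all probes. Thresholds were those of the methods, with limma in place of their t-test. Up to 3 called genes of each list with the largest change could be named, and the 3 genes most like each of the 9. Intervals are 95%. The number of arrays limits the precision. The p-values set a difference against the spread between mice within groups. They do not cover differences between slides that go with the groups compared. Summed levels are log2 of the sum of linear levels. The script was tested on simulated data. The genes and lists were chosen with earlier results of these data known. Arrays with the same replicate letter at 2 weeks deviated together (r = 0.166, 0.481 and 0.171 over 29342 probes), which was taken as pairing. The labels do not say what a letter marks. No such pattern held for every pair elsewhere. Alternatives were normexp background correction, quantile scaling, dim probes left out, outlier spots kept, the t-test, the deposited table, the replicate letter and slide as blocks, a fit of all arrays and each array left out. Slide terms within comparisons and the leaving out of arrays with high leukocyte levels were chosen after seeing the data.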

Additional observations from a re-analysis of the deposited data

How the results depend on the processing

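Counts below are of the 9 genes called. The share of all probes called was not counted under these alternatives, so a changed count may go with a changed share. For LDIR at 2 weeks (2 called), normexp, quantile scaling, the t-test and the replicate block each gave 1, and the fit of all 24 arrays, with or without slide, gave 0 (1 to 2 with an array left out). At 4 weeks in BALB/c (4 called), the t-test gave 2, the fit of all arrays 1, and either slide term 0 (2 to 7). At 8 weeks (0 called), either slide term gave 1 and leaving out the arrays of high leukocyte level 2 (0 to 2). In SPRET/EiJ (0 called) no setting but a left-out array moved the count (0 to 1). Over all weeks (1 called), normexp, quantile scaling and either slide term gave 0 (0 to 2). For the strains in sham mice (1 called), normexp gave 5, probes above background 3, quantile scaling and the replicate block 2, and the t-test and slide in the fit of all arrays 0 (0 to 1). In LDIR mice (2 called), the t-test gave 0, and normexp, quantile scaling and the fit of all arrays, with or without slide, 1 (1 to 3). For the interaction (0 called), normexp, quantile scaling and probes above background gave 1 (0 to 4). For 4 against 2 weeks (0 called), normexp gave 3, and probes above background and slide 1 (0 to 2). The slide fit there is the same as leaving out 4 weeks sham replicate C. For 8 against 4 weeks (7 called), slide gave 4, or 2 in the fit of all arrays (7 to 9). The cause of these changes was not tested.

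Over all 9 genes and 10 comparisons, 1484 of 1582 values under the alternatives kept their direction and 98 reversed. None of the reversals was in LDIR against sham at 4 weeks in BALB/c or in 8 against 4 weeks in sham mice. At 8 weeks, either slide term turned the LDIR differences of Ucp1 to 2.26, Cidea to 1.26, Elovl3 to 2.27, Cox7a1 to 0.50 and Dio2 to 0.14. There quantile scaling turned Elovl3 to 0.40, and leaving out the arrays of high leukocyte level turned it to 0.26 and Cox7a1 to 0.45. Over all weeks, slide in the fit of all arrays gave 0.83 for Ucp1, 0.0702 for Cidea, 0.45 for Elovl3, 0.18 for Cox8b, 0.0664 for Cox7a1 and 0.34 for Ppargc1a, and slide among the BALB/c arrays 0.89, 0.10, 0.57, 0.10, 0.12 and 0.27. Ppargc1a became 0.0153 with quantile scaling and 0.0297 without the arrays of high leukocyte level. With slide in the fit of all arrays, the strain differences became -0.34 for Cox7a1, -1.48 for Ppargc1a and -0.0675 for Dio2 in sham mice and -0.54 for Cox7a1 and -0.57 for Dio2 in LDIR mice, and the interaction 0.27 for Ucp1 and 0.0686 for Cpt1b.

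Leaving out an array turned other values. At 2 weeks the ranges were -0.46 to 0.56 for Cidea, -1.06 to 2.36 for Elovl3, -0.55 to 0.0307 for Cox8b, -0.15 to 0.67 for Cox7a1, -0.17 to 0.22 for Ppargc1a and -0.72 to 0.33 for Cpt1b. At 8 weeks they were -2.95 to 0.0118 for Ucp1, -1.33 to 0.38 for Cidea, -1.81 to 0.37 for Elovl3, -0.21 to 1.06 for Cox8b, -0.82 to 0.75 for Cox7a1, -0.98 to 0.0112 for Dio2, -0.31 to 0.68 for Prdm16 and -0.21 to 0.53 for Cpt1b. In SPRET/EiJ they were -0.72 to 0.22 for Cox7a1, -1.105 to 0.0858 for Dio2 and -0.80 to 0.27 for Prdm16. Over all weeks Ppargc1a ran from -0.18 to 0.13. Between strains Ppargc1a ran from -0.33 to 0.25 in sham mice, and Cox7a1 from -0.0699 to 0.87 and Dio2 from -0.12 to 1.097 in LDIR mice. The interaction ran from -1.55 to 0.14 for Ucp1, -0.41 to 1.00 for Cox8b, -0.87 to 0.42 for Dio2, -0.97 to 0.21 for Prdm16 and -0.71 to 0.15 for Cpt1b. For 4 against 2 weeks the ranges were -0.00784 to 0.33 for Cox8b, -0.80 to 0.00583 for Dio2 and -0.0531 to 0.40 for Cpt1b.

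With the replicate letter as a block, the count of called genes moved by over 1.5 times for LDIR at 2 weeks and for the strains in sham mice, in which the letters pair no arrays. Elovl3 was not above background on 6 BALB/c arrays and Ucp1 on 1, where their levels are only bounds.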
